A study of Mus musculus with 12 samples.

Results

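The genes described here are 35 mouse genes that type I interferons are known to induce. They were listed by name and not by a cutoff on a level, but with earlier results of these data known. All 35 occur in the 12 count files among 23420 genes, and all 35 passed the filter on low counts, which kept 12759 genes. The series compared mice that lack OTUB1, a deubiquitinating enzyme, in T cells with wild-type mice, before and after T cell activation in culture. Each of the 4 groups held 3 libraries. Fresh wild-type and fresh knockout cells came from the spleen without treatment. Stimulated wild-type and stimulated knockout cells had 24 h of culture on anti-CD3 at 1 µg/ml plus anti-CD28 at 1 µg/ml, antibodies that engage the T cell receptor and its costimulator, so culture and stimulation are 1 factor and cannot be told apart. All mice were C57BL/6, 6 to 8 weeks old, with the OT-I receptor transgene, which gives CD8 T cells of 1 specificity. The knockouts are OTUB1-CD4Cre-OT-I mice, called OTUB1-DKO in the sample labels. CD4-Cre acts in developing T cells of both lineages, so the deletion begins before the cells mature. The series' design text names naive CD8 T cells, whereas the cell type label of the samples reads splenic DCs.

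Type I interferons bind the receptor chains IFNAR1 and IFNAR2, whose kinases JAK1 and TYK2 pass the signal on by phosphorylation. STAT2 and IRF9 are subunits of the resulting complex, ISGF3, that enters the nucleus and binds a DNA element called the interferon-stimulated response element. The genes it switches on encode proteins that block viral entry and replication, sensors of foreign nucleic acid, and regulators that damp the pathway. Naive T cells express many of them at a low tonic level, and type I interferon shapes how CD8 T cells survive and respond.

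Library totals ran from 15064488 to 25920035 gene counts. Levels are given as CPM, the counts of a gene per 1000000 gene counts of its library, after scaling by the trimmed mean of M values (TMM). Otub1, the deleted gene, checked the genotype labels. It stood at 72.5, 70.8 and 45.1 CPM in fresh wild-type cells and at 25.4, 28.8 and 28.6 CPM in fresh knockout cells, and at 85.6, 100.1 and 96.1 CPM against 16.2, 13.8 and 14.5 CPM after stimulation. The groups did not overlap in either state, and the 3 fresh wild-type libraries all lay above every knockout library. Markers were read as a check of the cell type label. The 7 of 8 CD8 T cell markers found in the files summed to between 5173 and 5564 CPM in the fresh libraries. The 13 dendritic cell markers summed to between 1031 and 1530 CPM there, mostly from the class II genes Cd74, H2-Aa and H2-Ab1, whereas the dendritic cell lectin Clec9a lay between 14.9 and 26.0 CPM. Per kilobase of exon, Cd8a stood at 417 ± 9.23 CPM per kb (SD, n = 3) in fresh wild-type cells. Of the dendritic cell list, Cd74 stood there at 393 ± 35.9, H2-Ab1 at 97.3 ± 9.50 and Clec9a at 6.32 ± 1.68 CPM per kb. The CD8 T cell markers thus go with the design text, while within the dendritic cell list the class II genes were high and Clec9a was low. Reads from Y-linked genes were present in 3 of the 12 libraries, 1 of the fresh wild-type group (replicate 3), 1 of the fresh knockout (replicate 2) and 1 of the stimulated knockout (replicate 3). Within each of these groups, libraries with and without Y-linked reads cannot all come from 1 animal. Whether the replicates are otherwise separate animals is not in the labels. The p-values therefore measure spread between libraries, which may be in part technical. In bulk RNA, fewer cells of a type and less RNA per cell cannot be told apart.

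Sequences upstream of 6 members that hold the core of the response element are shown as examples, not chosen by distance to the start site. RefSeq promoter windows on GRCm38.p6, from 250 bases before to 50 bases after the start, matched 25 of the 35 members. No window was matched for Mx1, Mx2, Oas2, Dhx58, Zbp1, Usp18, Parp9, Parp14, Rtp4 and Ifi27l2a. Each line gives 100 bases before the start site, 5′ to 3′ on the gene's strand, and capitals mark every match on either strand to the motif searched, which is GAAA, then any 2 bases, then GAAA, where overlapping matches run together.
Isg15 (chr4:156200832-156200931, minus strand): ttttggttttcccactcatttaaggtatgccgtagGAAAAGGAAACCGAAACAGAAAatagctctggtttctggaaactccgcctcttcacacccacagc
Ifit1 (chr19:34640750-34640849, plus strand): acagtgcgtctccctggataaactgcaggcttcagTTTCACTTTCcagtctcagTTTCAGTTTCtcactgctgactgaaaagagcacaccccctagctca
Ifit3 (chr19:34583338-34583437, plus strand): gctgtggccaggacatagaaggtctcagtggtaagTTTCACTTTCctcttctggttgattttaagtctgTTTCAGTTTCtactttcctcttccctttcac
Rsad2 (chr12:26456508-26456607, minus strand): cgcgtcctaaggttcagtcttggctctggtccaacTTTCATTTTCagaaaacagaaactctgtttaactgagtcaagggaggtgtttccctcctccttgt
Oas1a (chr5:120907526-120907625, minus strand): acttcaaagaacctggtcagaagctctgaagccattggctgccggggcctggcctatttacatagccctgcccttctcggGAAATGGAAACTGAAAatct
Oas3 (chr5:120777670-120777769, minus strand): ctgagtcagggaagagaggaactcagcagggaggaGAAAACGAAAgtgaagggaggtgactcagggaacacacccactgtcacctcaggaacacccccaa
Isg15 held 3 overlapping matches, which began 78, 72 and 66 bases before the start. Ifit1 held 2 matches at 104 and 85 bases, both on the opposite strand, and Ifit3 held 2 at 156 and 122 bases. Oas1a carried its 2 overlapping matches directly beside the start, at 20 and 14 bases.

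The motif occurred in the windows of 13 of the 25 matched members (52%) and in those of 3.99% of the 27025 genes in the same table. Besides the 6 shown, these were Bst2, Ifitm3, Trim30a, Ifih1, Ddx58, Eif2ak2 and Stat2. The same motif followed directly by a C, which is a subset of the first, was found in 11 members and in 0.944% of all genes. TTCNNNGAA, searched on both strands and made of the half-sites to which STAT dimers bind, was found in 7 members (28%) and in 9.55% of all genes. A match describes the letters of the window and shows no binding. The 13 members with a match had a median log2 fold change on stimulation of wild-type cells of -2.30 (range -5.70 to -0.72), and the 12 without one had a median of -2.28 (range -4.22 to -0.50).

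Several members are neighbours in the genome (GENCODE M21, GRCm38). Ifit2, Ifit3 and Ifit1 lie between 34550694 and 34650009 on chromosome 19, and Rsad2 and Cmpk2 lie side by side on chromosome 12. Oas2, Oas3 and Oas1a occupy chromosome 5 from 120730333 to 120907521. Parp14, Dtx3l and Parp9 lie between 35832874 and 35972605 on chromosome 16. Exons of Parp9 and Dtx3l overlap on opposite strands, and the sources used here do not say whether counting used strand, so their reads may not be fully separated. Ifit1, Ifit3, Oas1a and Trim30a have close copies nearby, and their counts are uncertain to the extent that reads fit a copy.

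Levels per kilobase of exon differed widely between members in the fresh wild-type cells. Ifi27l2a, which encodes a small hydrophobic protein, was highest at 336 ± 46.3 CPM per kb (SD, n = 3). Bst2 (tetherin, which holds budding virus at the cell surface) followed at 129.6 ± 38.1, Lgals3bp (a secreted glycoprotein that binds galectins) at 112 ± 13.8, and Samd9l (which represses translation) at 107 ± 14.02 CPM per kb. The last 3 lay within each other's spread, and Ifi27l2a lay above them. The lowest were Ifitm3, which blocks fusion of viruses with endosomes, at 6.97 ± 2.75 and Ifi44 at 0.602 ± 0.330 CPM per kb. In fresh knockout cells the same 3 genes led, with Ifi27l2a at 313 ± 10.0, Bst2 at 155 ± 2.23 and Lgals3bp at 138 ± 2.73 CPM per kb. After stimulation Ifi27l2a (98.0 ± 11.4) and Bst2 (78.6 ± 8.49) led in wild-type cells, and Rsad2 (0.268 ± 0.0377) and Ifi44 (0.0840 ± 0.0302 CPM per kb) were lowest. Ifi44 fell to as few as 7 reads in a stimulated library, the smallest count of any member.

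**Figure D1:**
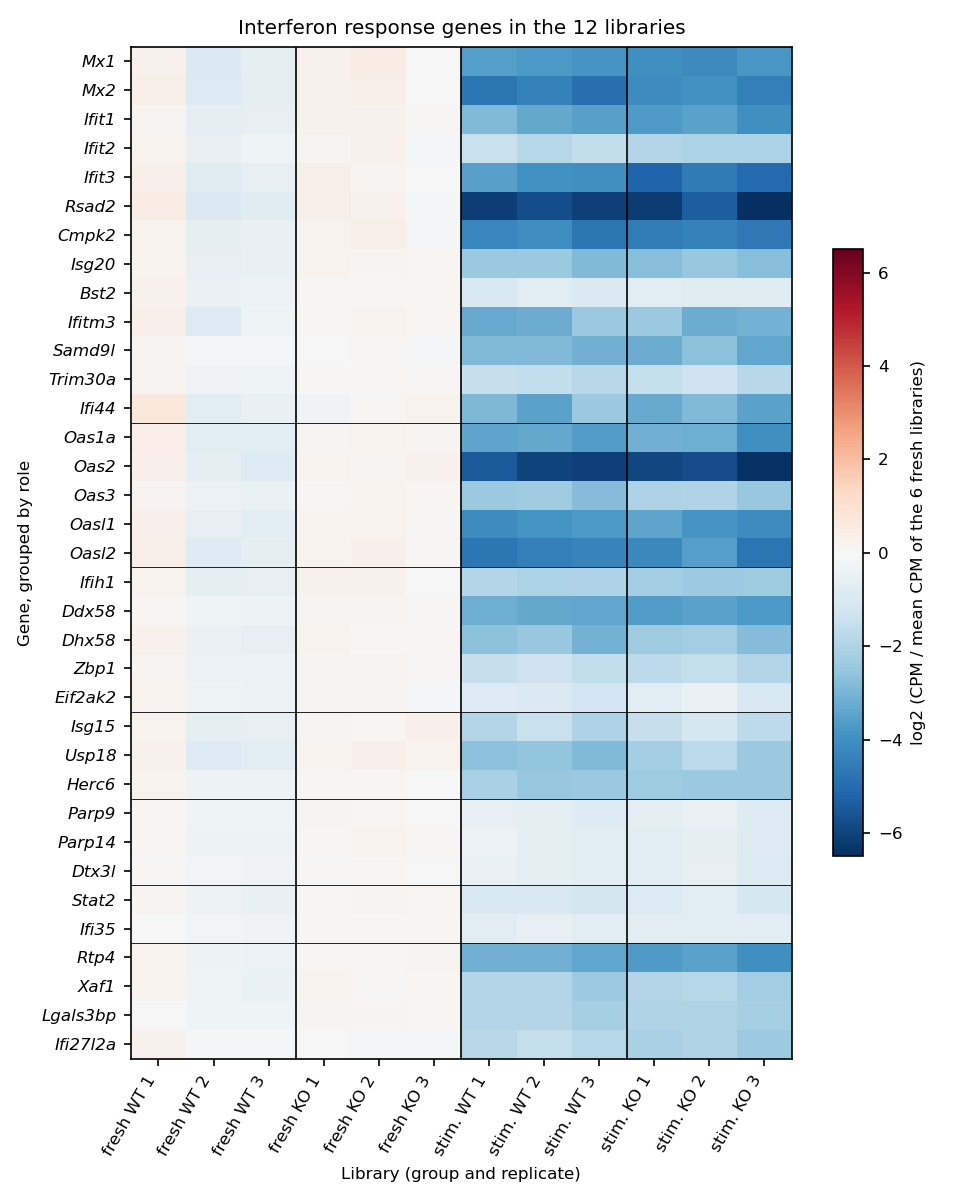
Heat map of the 35 genes (rows, grouped by role) in the 12 libraries (columns); color gives log2 of CPM over the mean CPM of the 6 fresh libraries. Stimulated libraries are lower than fresh ones for all 35 genes, and fresh WT replicate 1 is warmer than replicates 2 and 3.

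In fresh cells, none of the 35 genes was called different between knockout and wild type. Yet 34 of the 35 had a positive log2 fold change, with a median of 0.32 against -0.00 over all 12759 genes. The test was edgeR's quasi-likelihood test with Benjamini-Hochberg adjustment over all genes tested, called at an adjusted p under 0.05. Over all genes, 0.98% were called higher and 0.219% lower in the knockout. DESeq2 called 1 member higher, Lgals3bp, where it called 1.92% of its 11816 genes higher and 0.855% lower. At an unadjusted p under 0.05, 20 members were higher and 0 lower, against 965 higher (7.56%) and 838 lower (6.57%) of all 12759 genes. That count of 20 was 33 without fresh wild-type replicate 1, 3 without replicate 2, 5 without replicate 3 and 1 without the 3 libraries that hold Y-linked reads. The smallest adjusted p was 0.0797, for Lgals3bp. The 1 gene with a negative value was Ifi27l2a.

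The 13 effectors that block viruses had fresh log2 fold changes from 0.01 to 0.62, and 6 of them had an unadjusted p under 0.05. Mx1, a dynamin-like GTPase that traps viral nucleocapsids, stood at 109, 47.3 and 57.2 CPM in the wild-type and at 108, 127 and 93.3 CPM in the knockout libraries. Wild-type replicate 1 was as high as the knockouts, and the other two lay below all of them. The fold change was 0.62 (SE 0.21, edgeR adjusted p = 0.19). Rsad2 (viperin, which makes a chain-terminating nucleotide) was at 102, 38.1 and 42.1 CPM in wild type and at 96.1, 88.5 and 70.3 CPM in knockout cells. Here wild-type replicate 1 was the highest of the 6 libraries. The neighbouring gene Cmpk2, a mitochondrial nucleotide kinase, showed 70.5, 39.1 and 43.0 against 71.1, 79.4 and 57.8 CPM. Ifit3 was at 152, 71.2 and 84.1 CPM in wild type and at 162, 139 and 124 CPM in the knockout. Ifit1, which binds RNA caps lacking 2′-O methylation, had 124, 74.5 and 77.2 CPM against 132, 134 and 117 CPM. Samd9l and Ifi44 had values of 0.01 and 0.08, the smallest positive ones of the list.

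The 2-5A synthetase family makes the second messenger that activates RNase L. Its 5 members had fresh values between 0.36 and 0.52. Oas2 stood at 275, 144 and 121 CPM in wild-type and at 259.6, 251 and 266 CPM in knockout libraries. Oas1a was at 42.7, 19.4 and 19.2 against 36.2, 36.9 and 36.3 CPM. In both genes the knockout libraries were close together and wild-type replicate 1 lay above all of them. Oasl2, a relative with ubiquitin-like domains, had 113, 49.2 and 58.2 against 100.4, 110.3 and 90.2 CPM.

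The 5 nucleic acid sensors had values from 0.22 to 0.46. Ifih1, which encodes the long double-stranded RNA sensor MDA5, was at 90.3, 51.5 and 53.6 CPM in wild type and at 94.3, 93.5 and 79.7 CPM in knockout cells, a log2 fold change of 0.46 (SE 0.15, edgeR adjusted p = 0.182). Ddx58, which encodes the RNA sensor RIG-I, was at 310.2, 239 and 230.3 CPM against 323, 328 and 305 CPM. Its wild-type replicate 1 lay between knockout replicate 3 and the other 2 knockouts. Zbp1, a Z-form nucleic acid sensor, Dhx58 (LGP2) and Eif2ak2 (the kinase PKR) had values of 0.32, 0.35 and 0.22.

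In the ISG15 system, Isg15 is a ubiquitin-like modifier, Usp18 removes it and also blocks IFNAR2, and Herc6 is the mouse ligase that attaches it. Usp18 stood at 106, 48.1 and 53.1 CPM in wild type and at 103, 109 and 101 CPM in knockout cells (log2 fold change 0.59, SE 0.22, edgeR adjusted p = 0.228). Isg15 was at 83.2, 45.9 and 49.8 against 80.3, 78.5 and 89.7 CPM. Both genes had wild-type replicate 1 inside the knockout range. Among the remaining members, Lgals3bp (363, 296 and 295 against 399, 395 and 384 CPM) and Ifi35 (86.4, 74.1 and 71.1 against 89.3, 90.9 and 90.7 CPM) were the 2 whose groups did not overlap. Over all genes 10.6% had every knockout library higher and 9.41% every knockout library lower.

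**Figure D2:**
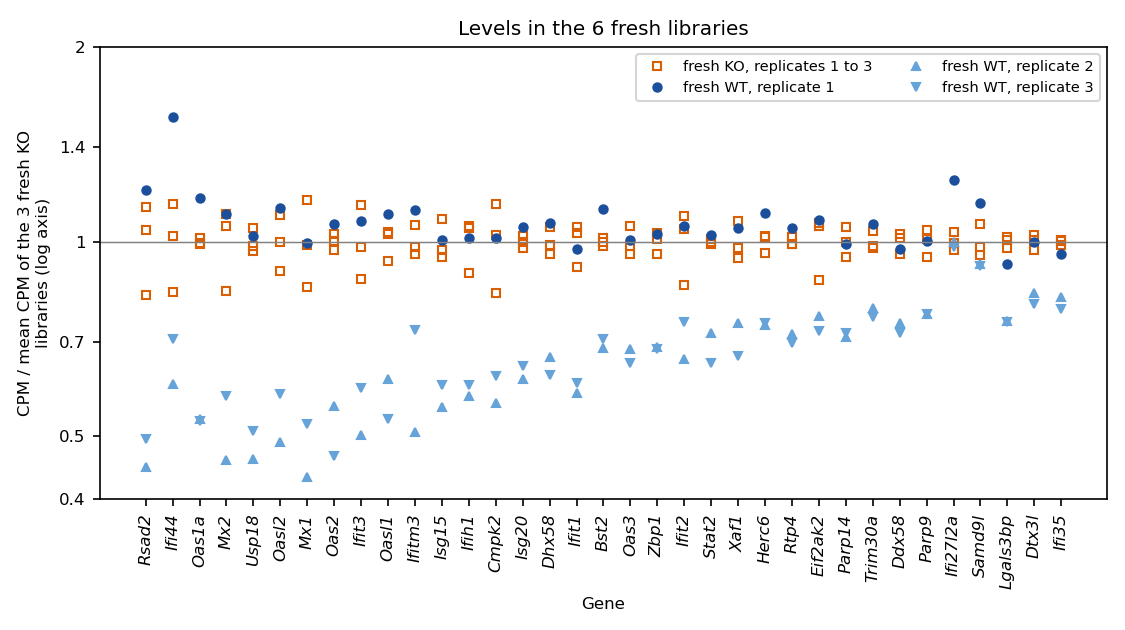
CPM of each gene in the 6 fresh libraries over the mean of the 3 fresh knockout libraries (log axis), ordered by the fold of wild-type replicate 1 over replicates 2 and 3. Squares are knockout libraries; wild-type replicates 2 and 3 (triangles) lie below every square for 34 of 35 genes, while replicate 1 (filled circles) lies among or above the squares for all but Lgals3bp and Ifi35.

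A single library stood apart among the fresh wild-type libraries. Fresh wild-type replicate 1 was the highest of the 3 wild-type libraries for 35 of 35 members, whereas it was highest for 32.2% of all genes. Its members summed to 5877 CPM, against 4020 and 3993 CPM in replicates 2 and 3 and 5672, 5805 and 5380 CPM in the knockouts. Its fold over the mean of replicates 2 and 3 had a median of 1.61 over the members, from 1.19 for Ifi35 to 2.55 for Rsad2, and 0.997 over all genes. The fold reached 1.5 for 20 of the 35, against 2.95% of all genes. Read the same way, replicate 2 and replicate 3 reached it for 0 members, with 2.85% and 3.44% of all genes. Next to Rsad2 came Ifi44 (2.38), Oas1a (2.21), Mx2 (2.13) and Usp18 (2.10).

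Replicates 2 and 3 lay below all 3 knockout libraries for 34 of the 35 genes, where 17.3% of all genes did so. The exception was Ifi27l2a. For 32 of these genes replicate 1 did not lie below the knockouts, a pattern shown by 6.71% of all genes. It lay above every knockout library for 17 members and 26.0% of all genes. Of 9642 genes ranked by the fold of replicate 1, the first 50 (0.519%) included 16 of the 33 members ranked. They also held 12 genes from the lists of other interferon-related genes, whose share in the ranking was not counted. Members and lists were chosen with earlier results of these data known, so these counts are a description only. Otub1 was at its wild-type level in replicate 1. Dendritic cell markers summed to 1245 CPM in it against 1423 and 1530 CPM in replicates 2 and 3, and monocyte, macrophage and neutrophil markers to 33.1 against 40.8 and 53.7 CPM. B cell markers came to 162 against 151 and 141 CPM. Markers of plasmacytoid dendritic cells, which make interferon, summed to 377 against 429 and 401 CPM. Within that list Siglech was at 7.77, 8.47 and 9.45 CPM, whereas Ly6d, Klk1 and Pacsin1 were highest in replicate 1. NK cell markers summed to 78.2 against 62.8 and 76.0 CPM, and erythroid markers to 1.94 against 1.45 and 1.86 CPM. Of these sums, those of B cells, NK cells and erythroid cells were highest in replicate 1. The part of other cells in its levels was not tested.

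That this library stands apart was known from earlier results of these data, so the values without it describe how much the comparison rests on it and are no independent evidence. Without fresh wild-type replicate 1, 26 of the 35 genes were called higher in the fresh knockout and 0 lower, all 35 had a positive value, and the median was 0.59. Over all genes 1.32% were then called higher and 0.17% lower. Leaving out any of the other 5 fresh libraries gave 0 calls. The largest values without it were those of Rsad2 (1.09, SE 0.15, edgeR adjusted p = 0.00369), Mx1 (1.08, SE 0.12, adjusted p = 0.00113), Usp18 (1.05, SE 0.14, adjusted p = 0.00315), Oas2 (0.97, SE 0.10, adjusted p = 0.000704) and Mx2 (0.96, SE 0.14, adjusted p = 0.00465). Ifih1 had the smallest adjusted p, 0.000645. The 9 genes not called even then were Ifitm3, Samd9l, Trim30a, Ifi44, Eif2ak2, Parp9, Dtx3l, Xaf1 and Ifi27l2a. The 26 called held all 5 of the 2-5A synthetase family, all 3 of the ISG15 system and 9 of the 13 effectors. The summed NK cell markers were at between 62.8 and 78.2 CPM in fresh wild-type and between 96.5 and 124 CPM in fresh knockout cells. Nearly all of that sum was Eomes, a factor that CD8 T cells also use. Klrb1c, which encodes NK1.1, was lower in the knockout, at 2.97, 3.49 and 2.99 CPM in wild type against 1.92, 1.72 and 1.82 CPM, and Klra4 and Klra8 were at 0 in all libraries. Plasmacytoid dendritic cell markers summed to between 377 and 429 CPM in fresh wild-type and between 327 and 374 CPM in fresh knockout cells. Most of that sum was Ccr9, Pacsin1 and Irf8, so it is no measure of these cells alone. The wild-type mean of Ccr9 was 189 CPM, against 150 CPM for the knockout. Those of Pacsin1 were 89.4 against 84.3, of Irf8 86.2 against 76.2 and of Siglech 8.56 against 6.74 CPM. Tcf4 went the other way, with 14.2 against 14.5 CPM. The part of these sums in the result was not tested.

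**Figure D3:**
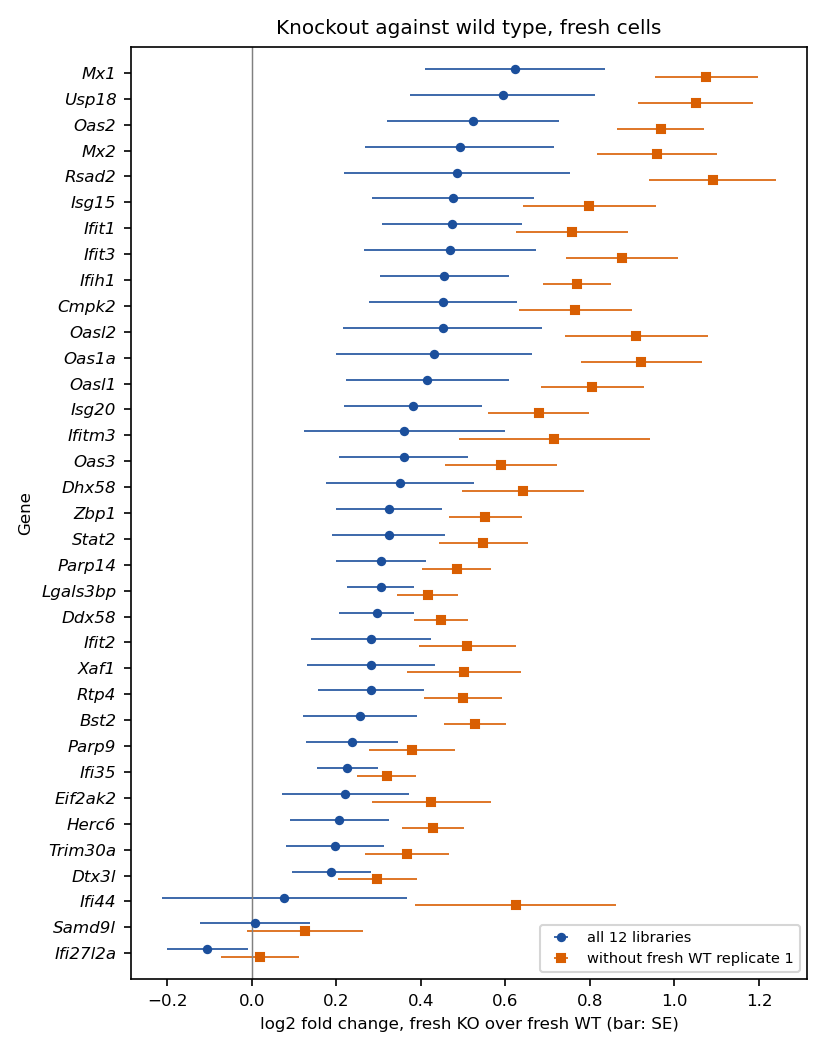
Log2 fold change of each gene, fresh knockout over fresh wild type (bars: SE), with all 12 libraries (circles) and without fresh wild-type replicate 1 (squares). All values but that of Ifi27l2a are above 0 with all libraries; 0 genes were called with all libraries and 26 without replicate 1.

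Stimulation lowered all 35 genes in both genotypes. In wild-type cells the median log2 fold change was -2.35 over the members and -0.03 over all genes. In knockout cells it was -2.51 and -0.02. Every member was called lower in each genotype, against 41.4% of all genes lower and 40.8% higher in wild-type and 42.2% lower and 41.7% higher in knockout cells. No member's stimulated libraries overlapped its fresh ones, and the stimulated libraries were the lower ones for 42.2% of all genes in wild-type and 42.6% in knockout cells. The fall was at least 2-fold for 28 members in wild-type and 29 in knockout cells. Over all genes, 21.5% fell and 18.7% rose at least 2-fold in wild type, and 22.7% and 19.9% did so in the knockout. These values are shares of a library, not amounts per cell.

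The 13 effectors had median log2 fold changes of -2.94 in wild-type and -3.21 in knockout cells. Rsad2 went from between 38.1 and 102 CPM in fresh to 1.05, 1.35 and 1.08 CPM in stimulated wild-type cells, a log2 fold change of -5.70 (SE 0.42, edgeR adjusted p = 2.94e-09). In knockout cells its stimulated libraries held 1.01, 1.78 and 0.645 CPM, a change of -6.26 (SE 0.41). Mx2, a GTPase related to Mx1, had log2 fold changes of -4.38 in wild-type and -4.37 in knockout cells and reached 1.35, 1.69 and 1.21 and 2.09, 2.30 and 1.63 CPM. In each gene the lowest fresh library, at 38.1 CPM for Rsad2 and 19.0 CPM for Mx2, was far above the highest stimulated one. The values were -4.10 and -4.74 for Cmpk2, and -3.56 and -5.17 for Ifit3. At the other end of this group, Bst2 had values of -0.72 and -0.88 and stayed between 65.2 and 80.3 CPM in the 6 stimulated libraries. Bst2 is also a marker of plasmacytoid dendritic cells and was left out of the marker sums.

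All 5 of the 2-5A synthetase family fell at least 2-fold, with medians of -3.66 and -3.94. Oas2 had 4.96, 3.42 and 3.24 CPM in stimulated wild-type and 3.64, 4.08 and 2.58 CPM in stimulated knockout cells, log2 fold changes of -5.55 (SE 0.30, edgeR adjusted p = 5.78e-11) and -6.25 (SE 0.30, adjusted p = 1.31e-11). Oasl2 changed by -4.22 in wild-type and -4.32 in knockout cells. Its stimulated libraries lay between 3.18 and 7.27 CPM, where the fresh ones had at least 49.2 CPM. Oas3 fell least in the family, with values of -2.30 and -2.31, and kept between 41.7 and 74.4 CPM.

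The medians were -1.74 and -2.51 for the sensors and -2.21 and -2.37 for the ISG15 system. Ddx58 reached 32.1, 28.4 and 28.0 CPM in stimulated wild-type and 23.3, 25.6 and 22.1 CPM in stimulated knockout cells, log2 fold changes of -3.14 and -3.75. Eif2ak2 had -0.90 and -0.79. Isg15 had -1.49 and -1.66, and Usp18 had -2.38 and -2.37. Among sensors, 4 of 5 passed 2-fold in each genotype, and all 3 genes of the ISG15 system did.

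In wild-type cells the smallest falls belonged to the PARP9 group and to Ifi35. Parp9 and its partner Dtx3l form an ADP-ribosylation and ubiquitin ligase complex, and Parp14 is a related ADP-ribosyltransferase. Parp14 went from 384, 276 and 279.8 CPM to 266, 227 and 218 CPM in wild-type cells (log2 fold change -0.40, SE 0.11, edgeR adjusted p = 0.00271) and from 387, 408 and 368 CPM to 217, 223 and 194 CPM in knockout cells (-0.88, SE 0.11, adjusted p = 1.48e-06). The wild-type groups were close, with 276 CPM in the lowest fresh and 266 CPM in the highest stimulated library. Dtx3l changed by -0.50 and -0.78, Parp9 by -0.56 and -0.75, and Ifi35, which dimerises with NMI, by -0.54 and -0.79. None of these 4 reached 2-fold in either genotype. Stat2, the ISGF3 subunit, changed by -0.88 and -1.06.

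The summed markers of other cells moved in both directions with stimulation. Dendritic cell markers went from between 1031 and 1530 CPM in fresh to between 518 and 634 CPM in stimulated libraries, where Irf8, which activated T cells express, made up most of the sum. Within that list Irf8, Batf3 and Zbtb46 had higher mean levels after stimulation and all the other markers lower ones. In wild-type cells the mean of Clec9a went from 20.8 to 0.0793 CPM and that of Itgax from 36.2 to 1.52 CPM. The means of the class II genes Cd74 and H2-Aa went from 660 to 57.9 CPM and from 291 to 12.4 CPM. Plasmacytoid dendritic cell markers, again with Irf8 and without Bst2, went from between 327 and 429 CPM to between 489 and 579.5 CPM. Within that list Irf8 and Cox6a2 had higher mean levels after stimulation and the other markers lower ones. Siglech, 1 of the latter, reached 0 in 2 stimulated libraries. NK cell markers, nearly all Eomes, went from between 62.8 and 124 CPM to between 152 and 189.6 CPM. B cell markers went from between 141 and 204 CPM to between 21.2 and 30.3 CPM. Monocyte, macrophage and neutrophil markers went from between 26.3 and 53.7 CPM to under 1 CPM. The CD8 T cell markers themselves went from between 5173 and 5564 CPM to between 1575 and 2058 CPM. The part of these changes in the fall of the members was not tested.

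**Figure D4:**
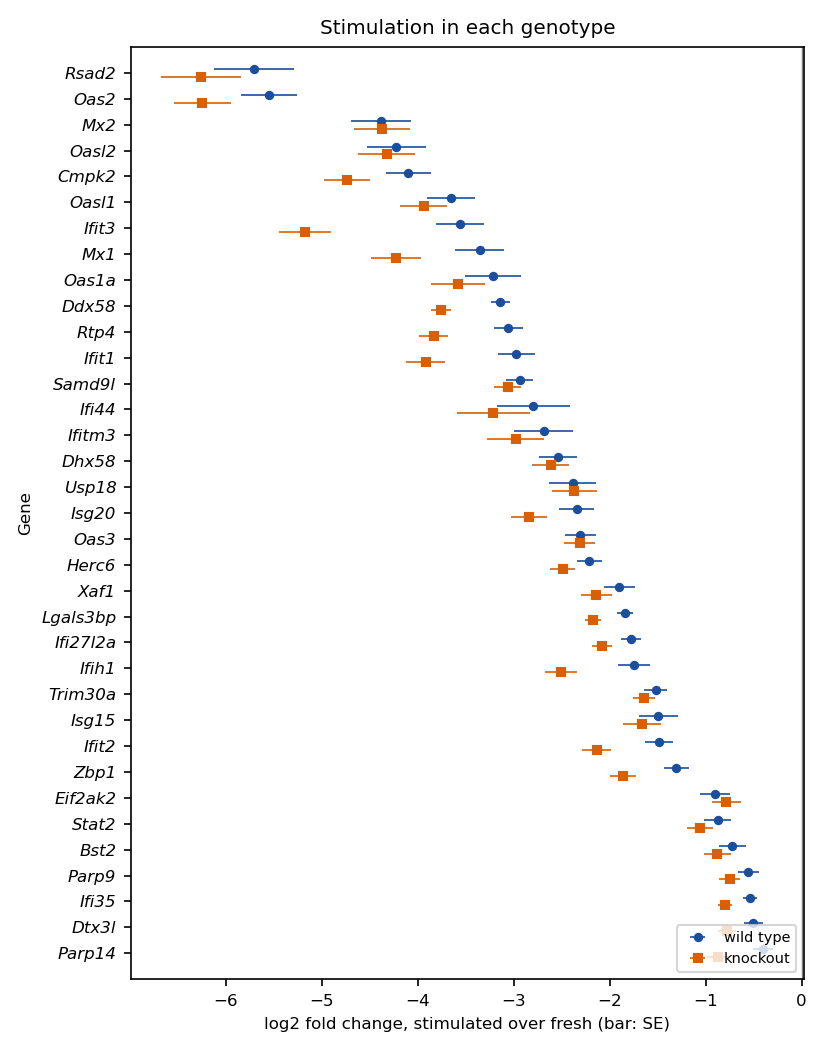
Log2 fold change of each gene, stimulated over fresh, in wild-type (circles) and knockout cells (squares), with SE bars. All values are below 0, from -0.40 for Parp14 in wild-type cells to -6.26 for Rsad2 in knockout cells.

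Between stimulated knockout and stimulated wild-type cells, 2 of the 35 genes were lower and 0 higher, against 4.22% of all genes lower and 5.08% higher. The median over the members was -0.07, and 15 of 35 values were positive. Ifit3 was at 10.5, 7.95 and 7.73 CPM in wild-type and at 3.33, 4.97 and 3.66 CPM in knockout libraries. All 3 knockout libraries lay below all 3 wild-type libraries, with a log2 fold change of -1.14 (SE 0.32, edgeR adjusted p = 0.0344). Ifi27l2a was at 43.5, 51.3 and 41.3 against 34.6, 38.4 and 29.6 CPM, also without overlap (-0.41, SE 0.11, adjusted p = 0.0257). Both calls were fragile. That of Ifit3 was lost on leaving out any 1 of the 6 stimulated libraries (adjusted p from 0.0508 to 0.117) and under limma-voom (adjusted p = 0.174). That of Ifi27l2a was lost without wild-type replicate 2 (adjusted p = 0.119), knockout replicate 1 (0.0595) or knockout replicate 3 (0.102). Without the 3 libraries that hold Y-linked reads neither was called (adjusted p of 0.106 for Ifit3 and 0.109 for Ifi27l2a).

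Groups did not overlap for 6 members that were lower in the stimulated knockout, namely Ddx58, Ifi27l2a, Ifih1, Ifit2, Ifit3 and Rtp4, and for 1 that was higher, Usp18. Over all genes, 13.1% were lower and 14.3% higher without overlap. Rtp4, a Golgi chaperone for opioid and taste receptors, was at 8.76, 8.91 and 7.52 CPM in wild-type and 6.11, 6.85 and 4.90 CPM in knockout libraries (log2 fold change -0.50, SE 0.17, edgeR adjusted p = 0.0835). Usp18 went the other way, at 13.5, 14.5 and 11.7 against 18.6, 25.8 and 16.5 CPM (0.61, SE 0.26, adjusted p = 0.157). Ifit1, next to Ifit3, had 14.9, 11.0 and 9.47 against 8.71, 9.73 and 7.01 CPM, and these groups overlapped.

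The interaction asks whether stimulation acted differently in the 2 genotypes: the stimulation effect in knockout minus that in wild-type cells. It was called negative for 2 members and positive for 0, against 1.56% and 0.698% of all genes. Of the 35 values 32 were negative, with a median of -0.29 against -0.00 over all genes. The same value is the knockout difference in stimulated cells (median -0.07) minus that in fresh cells (median 0.32, 34 of 35 positive). The negative signs are therefore no result independent of the fresh comparison. The calls were Ifit3 (-1.61, SE 0.38, edgeR adjusted p = 0.0371) and Ddx58 (-0.62, SE 0.14, adjusted p = 0.0313). In Ddx58 the fresh knockout mean was the higher one and the stimulated knockout libraries all lay below the wild-type ones. Ifit1 (-0.95, adjusted p = 0.0849), Rtp4 (-0.78, adjusted p = 0.0673) and Ifih1 (-0.77, adjusted p = 0.0981) came next. Without fresh wild-type replicate 1, 14 members were called, against 1.95% of all genes: Mx1, Ifit1, Ifit2, Ifit3, Isg20, Bst2, Oas2, Ifih1, Ddx58, Zbp1, Herc6, Parp14, Rtp4 and Lgals3bp. Leaving out fresh wild-type replicate 2 or 3, fresh knockout replicate 1 or 2, any stimulated wild-type library, or stimulated knockout replicate 1 or 3 gave 0 calls.

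Genes of the pathway that feeds these targets were read from lists, each against the same shares of all genes. Of 18 type I and III interferon genes in the files, 9 had no read in any library, and the largest count was 5 reads, for Ifnz in 1 library. None passed the filter, so expression of the ligands was not detectable at this depth. The receptor chain gene Ifnar1 was at 215, 212 and 222 CPM in fresh wild-type and at 209.7, 220.3 and 200.3 CPM in fresh knockout cells. Ifnar2 was at 66.9, 64.7 and 67.9 against 77.3, 82.1 and 76.4 CPM, higher in the fresh knockout without overlap (log2 fold change 0.24, SE 0.05, edgeR adjusted p = 0.0371). Without fresh wild-type replicate 1 its value was 0.25 (adjusted p = 0.063). All 4 genes for receptors and kinases fell on stimulation in both genotypes. So did 41.4% of all genes in wild-type and 42.2% in knockout cells. Jak1 fell most of the 4, with log2 fold changes of -1.81 in wild-type and -1.91 in knockout cells.

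Among 8 transcription factors of the pathway, none was called in fresh cells. At an unadjusted p under 0.05, 4 were higher in the knockout, against 7.56% of all genes. Irf7, the factor that amplifies interferon production, showed the members' pattern, at 351, 204 and 212 CPM in fresh wild-type and 348, 354 and 339.7 CPM in fresh knockout cells. Without wild-type replicate 1 it was called higher (0.75, edgeR adjusted p = 0.0162). Stimulation lowered Irf7, with values of -4.11 and -4.59, to between 10.6 and 18.9 CPM. Irf9, the DNA-binding subunit of ISGF3, fell by 1.26 in wild-type cells and was also called lower in the knockout. In stimulated cells Irf2 was lower in the knockout than in wild type (-0.25, edgeR adjusted p = 0.0299), and Irf5 was higher (0.52, adjusted p = 0.00921).

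Of 10 negative regulators, 5 rose and 4 fell on stimulation in each genotype. The shares of all genes were 40.8% higher and 41.4% lower in wild-type, and 41.7% higher and 42.2% lower in knockout cells. Cish, a suppressor of cytokine signalling, rose by 5.53 and 5.73 and was higher in stimulated knockout than wild-type cells (0.27, edgeR adjusted p = 0.014). Socs1, which inhibits JAK kinases, rose by 1.31 and 1.46, from between 18.1 and 20.9 CPM to between 43.6 and 56.3 CPM. Of 16 genes for other nucleic acid receptors and their adaptors, 4 rose and 10 fell in wild-type and 4 rose and 12 fell in knockout cells. In the stimulated knockout Mb21d1, which encodes the DNA sensor cGAS, was higher (0.42, adjusted p = 0.0109) and the kinase gene Ikbke lower (-0.31, adjusted p = 0.00446).

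A list of other interferon-stimulated genes, 64 of which were tested, showed whether the 35 stood alone. None of the 64 was called in fresh cells, and the median was 0.17. An unadjusted p under 0.05 was reached by 23 higher and 0 lower genes, against 7.56% higher and 6.57% lower over all genes. Without fresh wild-type replicate 1, 18 of 65 were called higher, against 1.32% of all genes. On stimulation 8 rose and 52 fell in wild-type cells (median -1.34), and 8 rose and 54 fell in knockout cells (median -1.70). Of all genes, 40.8% rose and 41.4% fell in wild-type cells, and 41.7% rose and 42.2% fell in knockout cells. In stimulated knockout cells 12 were lower and 0 higher than in wild type, against 4.22% lower and 5.08% higher of all genes. Among the 12 were the DNA-binding protein gene Ifi203 (-0.69), Pyhin1 (-0.75), Ly6c2 (-0.74) and Uba7, the activating enzyme for ISG15 (-0.60). The interaction was called negative for 9 of the 64, against 1.56% of all genes.

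Genes of the interferon gamma axis went in both directions on stimulation. Of 17 tested, 12 rose and 4 fell in wild-type cells, with a median of 0.64, and 9 rose and 6 fell in knockout cells, with a median of 0.18. These counts stand against 40.8% higher and 41.4% lower of all genes in wild-type, and 41.7% and 42.2% in knockout cells. Ifng itself, the type II interferon made by activated CD8 T cells, rose from 7.41, 5.91 and 8.32 CPM to 190.1, 259 and 282 CPM in wild-type cells (5.10, SE 0.17, edgeR adjusted p = 2.4e-13). In knockout cells it rose from 10.3, 10.0 and 8.82 CPM to 463, 623 and 535 CPM. The stimulated knockout libraries all lay above the wild-type ones (1.15, SE 0.12, adjusted p = 0.000106). The guanylate-binding protein gene Gbp2 rose by 2.95 and 2.46 on the log2 scale, and the GTPase gene Iigp1 by 3.51 and 2.83. In the stimulated knockout, 5 targets were lower than in wild type, against 4.22% of all genes. They were Gbp2 (-0.46), Gbp3 (-0.44), Gbp4 (-0.41), Tgtp1 (-0.38) and Tgtp2 (-0.36).

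**Figure D5:**
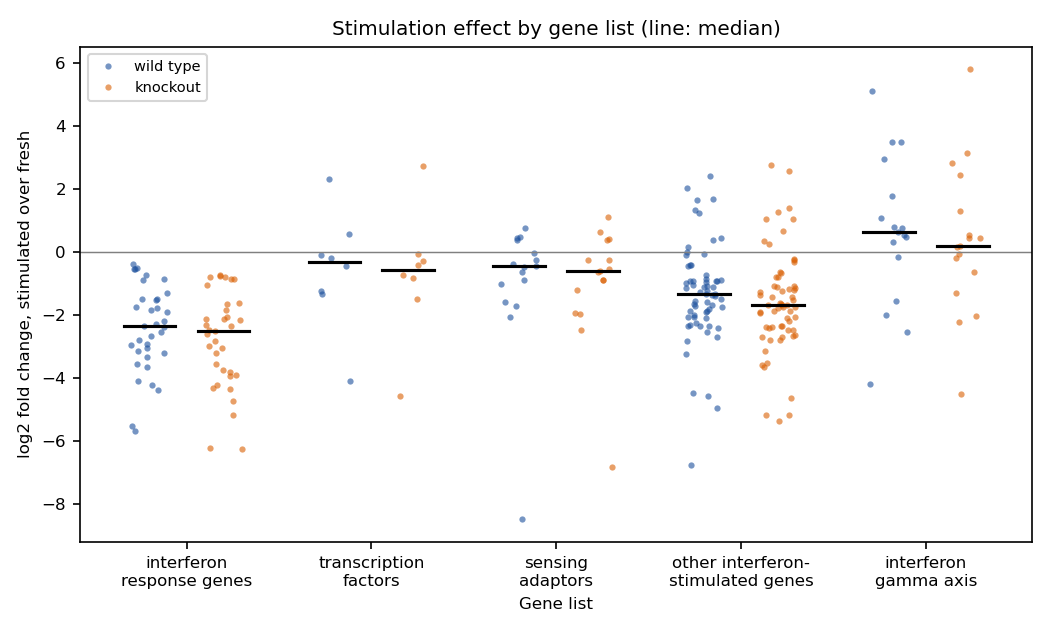
Log2 fold change on stimulation for each tested gene of 5 lists in wild-type (blue) and knockout cells (orange), with a line at the median. The 35 interferon response genes lie wholly below 0, while most of the interferon gamma axis in wild-type cells lies above 0; the lowest points are Tlr3 (-8.50) and Apol9b (-6.79), fitted values of genes with 0 or 1 read in stimulated wild-type libraries.

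Outside all lists, the genes most like the members over the 6 fresh libraries were found by the Pearson correlation of log2 CPM with the members' mean standardized log2 CPM, a description over 6 libraries of 2 genotypes. They were Gbp6 (r = 0.996), Gbp7 (0.994), Phrf1 (0.993), I830012O16Rik (0.990) and BC094916 (0.989). Gbp6 was at 186, 135 and 134 CPM in fresh wild-type and 178, 185 and 168 CPM in fresh knockout cells. I830012O16Rik, which RefSeq names Ifit3b, was at 32.8, 14.3 and 15.9 against 33.7, 30.7 and 27.3 CPM, and after stimulation at 3.26, 2.07 and 1.45 against 0.696, 1.05 and 0.731 CPM. It is a near copy of Ifit3, and reads may pass between them. Phrf1 lay between 168 and 178 CPM in the 6 libraries, a narrow range.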

How the data were processed

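RNA of 12 libraries was profiled by sequencing. The deposited files hold raw counts per gene as the authors made them. The submitters' processing notes name TopHat, TopHat2, HTSeq, DESeq2 and mm10. Versions, annotation and strand setting: not given in the sources used here. The 5 summary lines of each file (5.22 to 6.43% of all counts) were left out. Groups came from the labels. Counts were tested with edgeR 4.0.16 in R 4.3.3: TMM scaling (factors 0.988 to 1.01), filterByExpr, 1 coefficient per group over all 12 libraries, glmQLFit and glmQLFTest, two-sided, adjusted over 12759 genes. The SE is the fold change over the square root of F. Scripts were checked on simulated data. Alternatives were DESeq2 1.42.0, limma 3.58.1 (voom), other scalings, no filter, fits on the groups compared, left-out libraries and a stricter motif. Depth was 15064488 to 25920035 counts. No 2 replicates agreed within sampling noise (chi-square over its degrees of freedom, 4.26 to 18.6). Gene models were GENCODE M21 and promoters RefSeq. The members and lists were chosen with earlier results of these data known. The text names members called in a knockout comparison, the interaction or a fit with 1 fresh library left out, and the 5 members with the largest and smallest stimulation changes, with examples from each role group chosen after their values were seen. From other lists it names genes called in a knockout comparison, up to 3 per list for stimulation, and the 5 genes most alike. Results for 1 gene of the transcription factor list are not reported here.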

Additional observations from a re-analysis of the deposited data

Results flagged for a closer look

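The effect of stimulation differed between the genotypes for 2 of the 35 genes by a test of the difference itself, the interaction in edgeR's quasi-likelihood fit. For Ifit3 the stimulation effect in knockout minus that in wild-type cells was -1.61 on the log2 scale, and for Ddx58 it was -0.62. The stimulation effects themselves were -3.56 in wild-type and -5.17 in knockout cells for Ifit3, and -3.14 and -3.75 for Ddx58. Both calls were lost on leaving out fresh wild-type replicate 2 or 3, fresh knockout replicate 1 or 2, or any stimulated wild-type library. They were also lost without stimulated knockout replicate 1 or 3. Without fresh wild-type replicate 2 the edgeR adjusted p was 0.0613 for Ifit3 and 0.083 for Ddx58. Without fresh wild-type replicate 1 both were called, at -2.02 (edgeR adjusted p = 0.000675) and -0.76 (adjusted p = 0.00151).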

How the results depend on the processing

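The fall of all 35 genes on stimulation kept its direction and its call in both genotypes under every alternative run, and no value changed sign. The number of members called higher in the fresh knockout, 0, became 1 with DESeq2 and 2 with no filter on low counts, and ranged from 0 to 26 when each replicate was left out. Of all genes, 0.98% were called higher in the main fit, 1.92% with DESeq2 and 1.16% with no filter. The share was 1.32% without fresh wild-type replicate 1, the setting that gave 26 members. The number called lower in the stimulated knockout, 2, was 4 with DESeq2, 1 with limma-voom, 4 with no filter, 0 on leaving out the 3 libraries that hold Y-linked reads, and from 0 to 1 when each stimulated replicate was left out. Of all genes, 4.22% were called lower there in the main fit, 5.07% with DESeq2, 4.1% with limma-voom and 3.04% with no filter. The number with a negative interaction, 2, was 5 with DESeq2, 1 with limma-voom, 8 with no filter, 0 on leaving out those 3 libraries, and from 0 to 14 when each replicate was left out. Of all genes, 1.56% had a negative interaction called in the main fit, 3.23% with DESeq2, 1.45% with limma-voom and 1.67% with no filter. The share was 1.95% without fresh wild-type replicate 1, the setting that gave 14 members. The cause of these shifts was not tested. Other scalings moved none of the member counts by more than 1.5 times. The stricter motif gave 11 in place of 13 members. No paired analysis was possible because the labels of the groups compared share fewer than 2 replicate numbers. The replicate numbers 1 to 3 in this text follow the order of the samples within each group and link no libraries across groups. Depth limits the stimulated levels of Ifi44 and the ligand genes.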
